A study of Mus musculus with 4 samples.

Results

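The Hox genes are the homeobox transcription factors of the 4 mammalian Hox clusters, Hoxa, Hoxb, Hoxc and Hoxd, numbered by paralogue group from 1 to 13. They were taken as every probe set annotated to 1 gene whose symbol is a cluster name followed by a paralogue number. This gave 48 probe sets for 33 Hox genes, among 45137 non-control probe sets and 18193 genes named singly in the series. Hoxb8 and Hoxd4 appeared only on probe sets shared with a neighbour. Those shared probe sets, for Hoxd4 with Hoxd3 (165 and 241, 251 and 50.7, wild type first) and for Hoxb8 with Hoxb7 (398 and 465), were dim and are not counted among the 48.

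The study concerned the part of skeletal muscle in lung development. RNA of E18.5 fetal mouse lung was hybridised to 4 Affymetrix arrays, 1 for each genotype on each of 2 designs, MOE430A and MOE430B. The wild type embryos were BALB/c, and the double knockout embryos were labelled as null for Myf5 and Myod1 on BALB/c (Myf5-/-:MyoD-/-), the pair of transcription factors that commit cells to the skeletal muscle lineage. Null alleles are carried by every cell of an embryo, those of the lung included, and no treatment is named for either genotype. The labels do not say whether 1 embryo or a pool was used. With 1 array per genotype and design, no difference has a replicate check and no test between genotypes was possible.

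Hox proteins bind DNA through a homeodomain, mostly together with Pbx and Meis cofactors, and give cells their position along the body axis. Within a cluster the genes lie in the order in which they are used from head to tail, the low paralogue numbers at the anterior end. The lung arises from the foregut, and its mesenchyme expresses Hox genes of the anterior and middle groups. Hoxa5 is the best studied of these, and mice without it have defects of the trachea and lung.

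Signals are MAS5 intensities, which have no unit and were scaled on each array separately. Pairs of signals are given in the order wild type, double knockout, and each ratio is double knockout over wild type. A probe set passed when the mean of its log2 signals reached the median signal of its design (789 for MOE430A, 858 for MOE430B). A floor was set at the 25th percentile (284 and 279), and dimmer signals were raised to it, so a fold with 1 signal under the floor is a lower bound, and none is given with both under it. Probe sets differ in how strongly they bind, so a level is set against these thresholds and not against another gene.

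The arrays were checked first. The Myf5 probe set read 111 and 8.94, both under the floor. Myod1 went against the labels: its MOE430A probe set read 85.0 and 1079.5, at least 3.80-fold higher in the double knockout, and its MOE430B probe set read 337 and 612. Whether these probe sets lie inside the deleted parts was not known here, and every direction below rests on the labels. Xist was lower in the array labelled double knockout on 3 of 3 probe sets, and Y-linked genes were higher there on 7 of 9, none of them passing, so a difference in the sex of the embryos cannot be told apart from genotype. Of the lung markers, Sftpc, the surfactant protein of alveolar type II cells, read 78525 and 113225. Error between the designs could be read from the 100 probe sets that they share. Whether the same RNA went to both designs is not given by the labels. If it did, this error holds no variation between embryos. The ratios of the shared probe sets differed with an SD of 0.24 per log2 ratio, with equal error assumed for both designs. They were on average 0.20 higher on MOE430A than on MOE430B, which is about the size of the Hox medians given further on. Passing probe sets of 1 gene differed with a pooled SD of 0.33 on MOE430A and 0.53 on MOE430B. The 100 shared probe sets were bright, with a median signal of 2789 on MOE430A. Over all dim probe sets the log2 ratio before flooring spread with an SD of 1.06 on MOE430A and 1.43 on MOE430B, against 0.39 and 0.59 over passing ones.

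Most Hox probe sets were dim. On MOE430A, 4 of 37 passed, or 10.8%, against 49.5% of all probe sets of that design, and 16 of 37, or 43.2%, had both signals under the floor, against 20.7% of all. On MOE430B, 5 of 11 passed, or 45.5%, against 48.3% of all, and 1 had both signals under the floor. The 9 passing probe sets belonged to 6 genes, Hoxb2, Hoxa3, Hoxb3, Hoxd3, Hoxa5 and Hoxc6, and all lay in paralogue groups 2 to 6. With MOE430B placed on the scale of MOE430A through the shared probe sets, only 1 of its 5, that of Hoxa5, passed. Of the 26 probe sets of groups 1 to 6, 9 passed, and of the 22 probe sets of groups 7 to 13, 0 passed. By cluster, 4 of 16 probe sets passed for Hoxa, 2 of 11 for Hoxb, 2 of 11 for Hoxc and 1 of 10 for Hoxd.

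**Figure D1:**
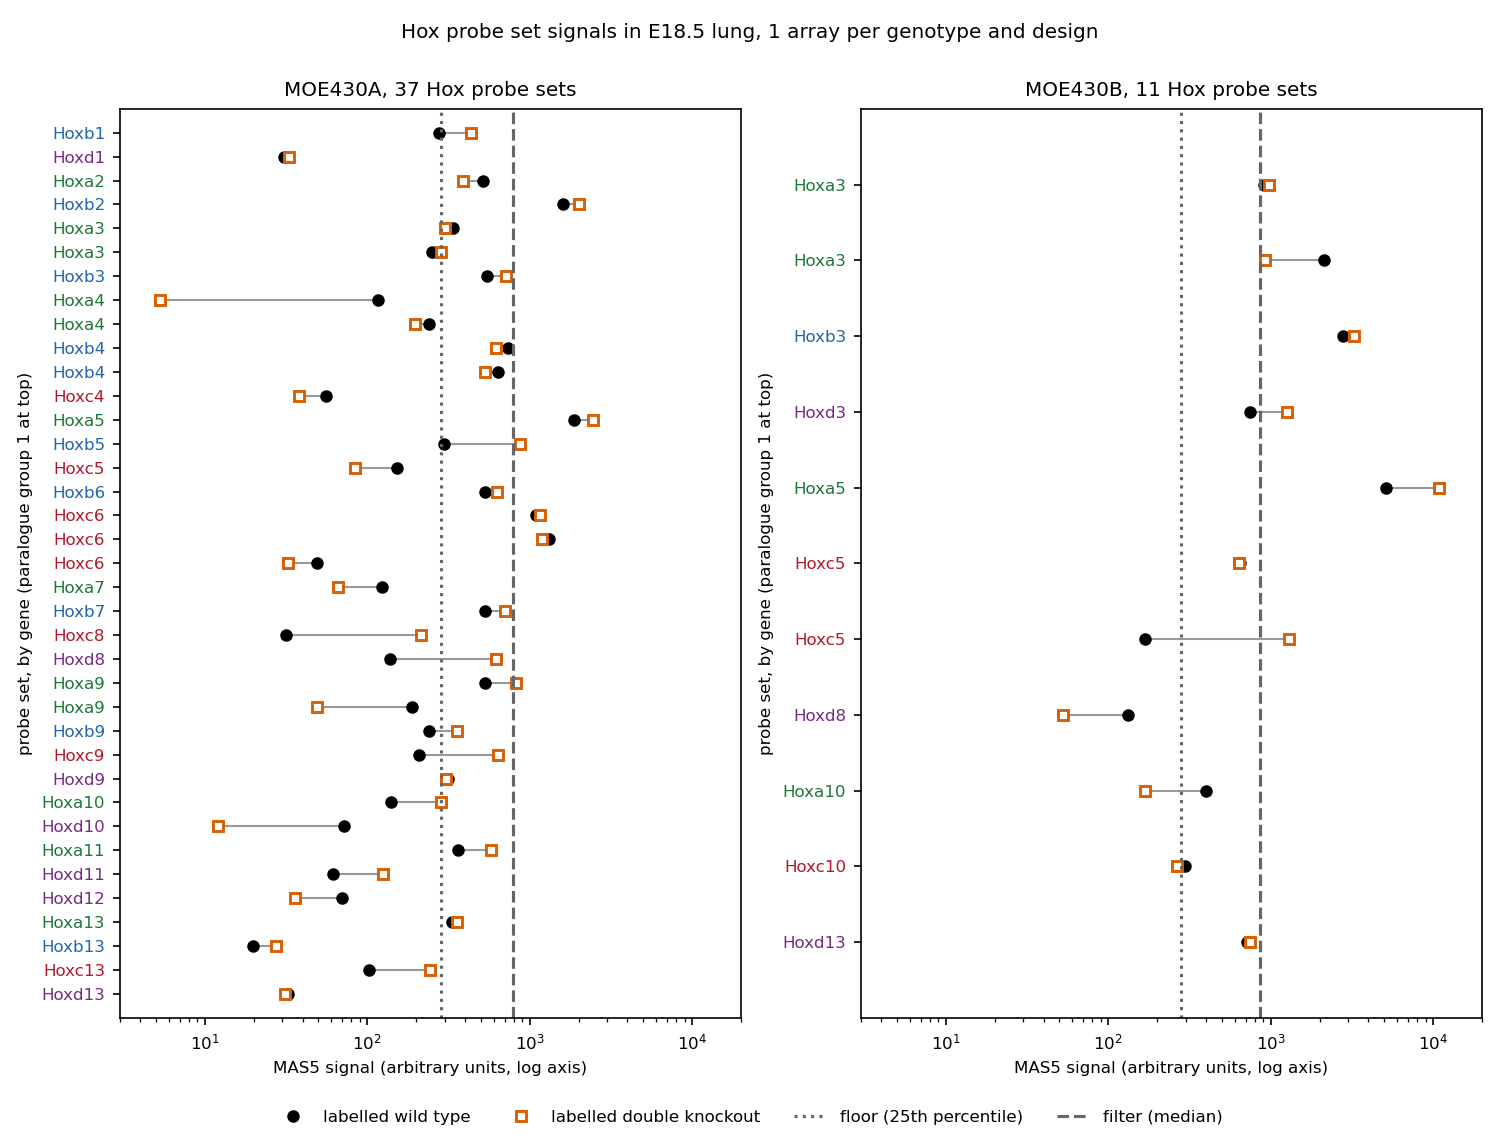
Signals of all 48 Hox probe sets on a log axis, ordered by paralogue group with group 1 at the top, for the arrays labelled wild type (filled circles) and double knockout (open squares); each point is 1 array, and dotted and dashed lines mark the floor and the filter of the design. The probe sets whose 2 signals both lie right of the filter line are those of Hoxb2, Hoxa5 and Hoxc6 on MOE430A and of Hoxa3, Hoxb3 and Hoxa5 on MOE430B.

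Between genotypes, 3 Hox genes had a passing probe set at least 1.5-fold apart. Hoxa5 and Hoxd3 read higher and Hoxa3 read lower in the array labelled double knockout, each on MOE430B. The 250 bases before the RefSeq start of these 3 genes are shown because theirs were the passing probe sets at least 1.5-fold apart. Each is written on the strand of its gene in build GRCm38.p6, at chr6:52204588-52204837 (minus strand) for Hoxa5, chr6:52213068-52213317 (minus strand) for Hoxa3 and chr2:74711743-74711992 (plus strand) for Hoxd3, and capitals mark TAAT or its complement ATTA, the core bound by many homeodomains.
Hoxa5: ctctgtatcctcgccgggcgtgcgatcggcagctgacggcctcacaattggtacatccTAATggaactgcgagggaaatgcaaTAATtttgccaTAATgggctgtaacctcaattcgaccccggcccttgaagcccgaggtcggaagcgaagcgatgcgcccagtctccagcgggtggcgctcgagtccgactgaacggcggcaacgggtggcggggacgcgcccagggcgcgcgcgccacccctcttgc
Hoxa3: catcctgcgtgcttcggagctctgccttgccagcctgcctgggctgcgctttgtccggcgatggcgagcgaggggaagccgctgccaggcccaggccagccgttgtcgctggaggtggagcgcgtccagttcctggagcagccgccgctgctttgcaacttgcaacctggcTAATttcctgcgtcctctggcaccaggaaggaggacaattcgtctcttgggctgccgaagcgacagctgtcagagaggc
Hoxd3: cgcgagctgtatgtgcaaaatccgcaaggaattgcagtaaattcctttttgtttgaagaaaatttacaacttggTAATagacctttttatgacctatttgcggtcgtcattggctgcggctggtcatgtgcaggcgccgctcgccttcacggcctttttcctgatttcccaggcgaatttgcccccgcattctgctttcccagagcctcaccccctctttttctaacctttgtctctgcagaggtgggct
The upstream sequence of Hoxa5 held 3 such cores, and those of Hoxa3 and Hoxd3 held 1 each. The start used for Hoxa3 lies upstream of those of Hoxa6 and Hoxa5, and that used for Hoxd3 upstream of that of Hoxd4. Whether the probe sets of Hoxa3 and Hoxd3 read transcripts from these distal starts was not known here. TAAT was found on either strand in 18 of 24 Hox promoters, which belonged to 22 genes, and in 54.9% of the 32851 promoters in the RefSeq table over the same length. TGATNNAT, a site bound jointly by Hox and Pbx proteins, was found in 4 of 24 Hox promoters and in 7.68% of all, and in 0 of the 3 shown. AGGTCA, the half-site of nuclear receptors including those for retinoic acid, was found in 6 of 24 and in 14% of all, and of the 3 shown Hoxd3 held it 1 time. The motifs shared 0 bases with a TAAT core in the 3 sequences shown. The Hox promoters had a median G+C content of 58.6%, from 40.4% to 80%, against 52.4% over all promoters, and a median of 12.5 CpG dinucleotides against 6.

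Hoxa5 passed the filter on both designs. Probe set 1443803_x_at on MOE430B read 5139 and 10818, a log2 ratio of 1.07, which is 2.10-fold higher in the double knockout as labelled. Probe set 1448926_at on MOE430A read 1878 and 2467, a log2 ratio of 0.39, or 1.31-fold higher. Both probe sets thus read higher with the double knockout label, by unequal amounts. The suffix of the MOE430B probe set marks it as one that may also bind other transcripts. Of all passing probe sets of MOE430B, 4.79% were at least 2-fold higher. With a mean signal at or above the 75th percentile, 1 of 2 Hox probe sets was 2-fold higher on MOE430B and 0 of 2 lower, against 1.52% and 1.19% of all, and on MOE430A 0 of 1 was, against 0.464% higher and 0.536% lower.

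Markers of lung mesenchyme, a tissue in which Hoxa5 is expressed, also read higher with the double knockout label. Of 11 passing probe sets of that list on MOE430A, 9 were higher, with a median log2 ratio of 0.56, and 3 of 3 on MOE430B were higher, with a median of 0.32. The summed signal over all probe sets of the list was 49193 and 74207 on MOE430A and 40944 and 47482 on MOE430B. Tcf21, a mesenchymal transcription factor, had log2 ratios of 0.88 on MOE430A and 0.81 on MOE430B. The 2 lower passing mesenchymal probe sets on MOE430A were both of Pdgfra (-0.17 and -0.45). Of the passing ones on MOE430B, Foxf1 was lowest, at 0.002. Epithelial markers read higher too, with 6 of 8 passing probe sets higher on MOE430A and summed signals of 128579 and 187347. Sftpc, at 78525 and 113225, made up the largest part of both sums. The 2 lower epithelial probe sets were those of Cdh1 (-0.35) and Epcam (-0.06), while Epcam on MOE430B had a log2 ratio of 0.95. The suffix of that MOE430B probe set also marks possible binding of other transcripts. The part of either list in the Hoxa5 values was not tested. In such bulk samples, fewer cells of a type and less RNA per cell cannot be told apart.

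The other genes of paralogue group 5 did not pass. Hoxb5, which is expressed in lung mesenchyme and shapes airway branching, read 298 and 867 by probe set 1418415_at on MOE430A, 2.91-fold higher with the double knockout label, with the wild type signal just above the floor. Hoxc5 was read by 3 probe sets. One on MOE430A read 153 and 84.5, both under the floor. Of those on MOE430B, 1 read 649 and 640.3, and the other 169 and 1300.0, at least 4.66-fold higher. The Hoxc5 probe sets therefore gave no common direction. Below the filter on MOE430B, 1 of 6 Hox probe sets was at least 2-fold higher and 0 of 6 lower, against 11.3% and 10.1% of all, and the counts at 1.5-fold were the same, against 19% and 17.1%.

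Paralogue group 3 had the most passing probe sets, 4 of 7, all on MOE430B, while 0 of 3 passed on MOE430A. None of the 4 passed with MOE430B placed on the scale of MOE430A. Hoxa3, which is needed for the thymus and parathyroid, had 4 probe sets that did not share a direction. Probe set 1431392_at read 2139 and 927, a log2 ratio of -1.21, which is 2.31-fold lower in the double knockout as labelled, where 3.45% of passing probe sets were at least 2-fold lower. With MOE430B placed on the scale of MOE430A it had -0.92 and lay below the filter. Probe set 1429398_at on the same design read 916 and 979, a log2 ratio of 0.10. The remaining ones, on MOE430A, read 335 and 299, and 252 and 284, near the floor. Of the 1559 genes with more than 1 passing probe set on MOE430B, 11.2% had probe sets at least as far apart as the 1.30 of Hoxa3. Of the 4 Hoxa3 probe sets, 1 was thus 2-fold lower. Markers of lymphocytes and thymus also read lower with the double knockout label, on 4 of 4 passing probe sets of each design, with median log2 ratios of -2.88 on MOE430A and -1.69 on MOE430B and summed signals of 24958 and 2778 on MOE430A and 20561 and 7244 on MOE430B. Prss16, a protease of thymic epithelium, had a log2 ratio of -2.76. Their part in the Hoxa3 value was not tested.

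Hoxb3 read 2794 and 3246 on MOE430B, a log2 ratio of 0.22, and 548 and 714 on MOE430A, below the filter, with 0.38. Both are higher by less than 1.5-fold. Hoxd3 read 744 and 1267 on MOE430B, a log2 ratio of 0.77, or 1.70-fold higher, at a level just inside the filter. With MOE430B placed on the scale of MOE430A it had 0.16 and lay below the filter, which ends the 1.5-fold difference. On that design 13.9% of all passing probe sets were at least 1.5-fold higher and 10.6% that much lower, against 2 of 5 and 1 of 5 of the Hox ones.

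The passing probe sets of groups 2 and 6 were each less than 1.5-fold apart. Hoxb2, best known from the hindbrain, read 1613 and 2009 on MOE430A, a log2 ratio of 0.32. Hoxa2, its paralogue, read 514 and 389, below the filter. Hoxc6 was read by 3 probe sets on MOE430A, at 1091 and 1155 (0.08), 1317 and 1197 (-0.14), and 49.3 and 32.5. The passing Hoxc6 probe sets differed in sign and lay 0.22 apart, less than the median of 0.34 between passing probe sets of 1 gene on that design. Hoxb6 read 530.2 and 632.

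No passing Hox probe set on MOE430A was 2-fold apart, where 0.848% of all passing probe sets were 2-fold higher and 1.04% 2-fold lower, and 0 of 4 were 1.5-fold apart, against 4.59% higher and 5.53% lower. On MOE430B, 1 of 5 was at least 2-fold higher and 1 of 5 at least 2-fold lower, against 4.79% and 3.45% of all passing probe sets. The median log2 ratio of the passing Hox probe sets was 0.20 on MOE430A (3 of 4 higher) and 0.22 on MOE430B (4 of 5 higher), against 0.00 over all passing probe sets of either design. Over all Hox probe sets with a fold, passing or not, 15 of 21 read higher on MOE430A, with a median of 0.32, where 48.9% of all such probe sets were higher. On MOE430B the numbers were 6 of 10, with a median of 0.08, where 51.1% of all were higher.

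**Figure D2:**
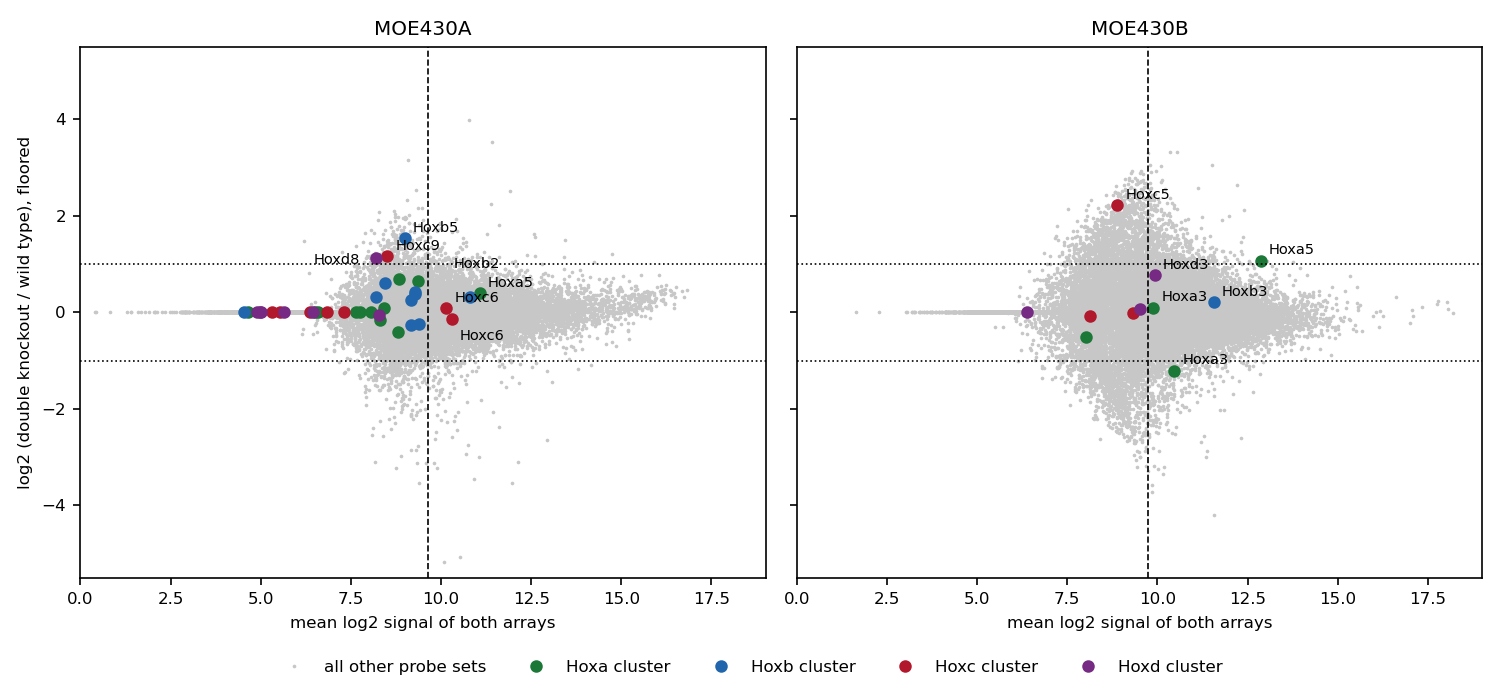
Log2 ratio of the arrays labelled double knockout over wild type against the mean log2 signal, for the Hox probe sets (coloured by cluster) and all other probe sets (grey) of each design, with signals under the floor set to it; the dashed line is the filter and the dotted lines mark 2-fold. Of the passing Hox probe sets, those past 2-fold are 1 of Hoxa5 (1.07) and 1 of Hoxa3 (-1.21) on MOE430B, and ratios spread more on MOE430B than on MOE430A, with SDs of 0.59 and 0.39 over all passing probe sets.

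The anterior groups 1 and 4 did not pass. Hoxb1, a hindbrain gene, read 276 and 435, and Hoxd1 30.6 and 33.2. Hoxb4 read 735 and 621 by 1 probe set and 636 and 528 by the other, log2 ratios of -0.24 and -0.27, just below the filter. Hoxa4 and Hoxc4 were under the floor in both arrays on all 3 of their probe sets.

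The middle and posterior groups, 7 to 13, are those of trunk, limb, gut and urogenital tract. None of their 22 probe sets passed, and 10 had both signals under the floor. Hoxb7 read 533 and 709.5, and Hoxa7 124 and 65.7. Hoxd8 read 139 and 619 on MOE430A, at least 2.18-fold higher, but 132 and 52.8 on MOE430B, both under the floor. In group 9, Hoxc9 read 209 and 636, at least 2.24-fold higher, and the probe sets of Hoxa9 read 528 and 823, and 188 and 48.9. Hoxb5, Hoxd8 and Hoxc9 made up the 3 of 33 Hox probe sets below the filter on MOE430A that were at least 2-fold higher, and 0 of 33 were 2-fold lower, where 2.36% and 2.44% of all such probe sets were. At 1.5-fold, 6 of 33 were higher and 0 of 33 lower, against 7.34% and 8.02% of all, the additional ones being Hoxb1, Hoxa9 and Hoxa11.

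In groups 10 to 13 most signals were at the floor. Hoxa10 read 140.3 and 286 on MOE430A and 399 and 168 on MOE430B, with opposite directions, and Hoxc10 read 295 and 265 there. Hoxa11, a gene of limb and kidney, read 361 and 580.4. Of the terminal group 13, Hoxa13 read 334 and 355, Hoxb13 19.9 and 27.3, Hoxc13 103 and 243, and Hoxd13 32.7 and 31.0 on MOE430A. Hoxd13 on MOE430B read 717 and 751, just below the filter of that design. The remaining probe sets of groups 8 to 12, those of Hoxc8, Hoxb9, Hoxd9, Hoxd10, Hoxd11 and Hoxd12, read between 12.1 and 355.

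**Figure D3:**
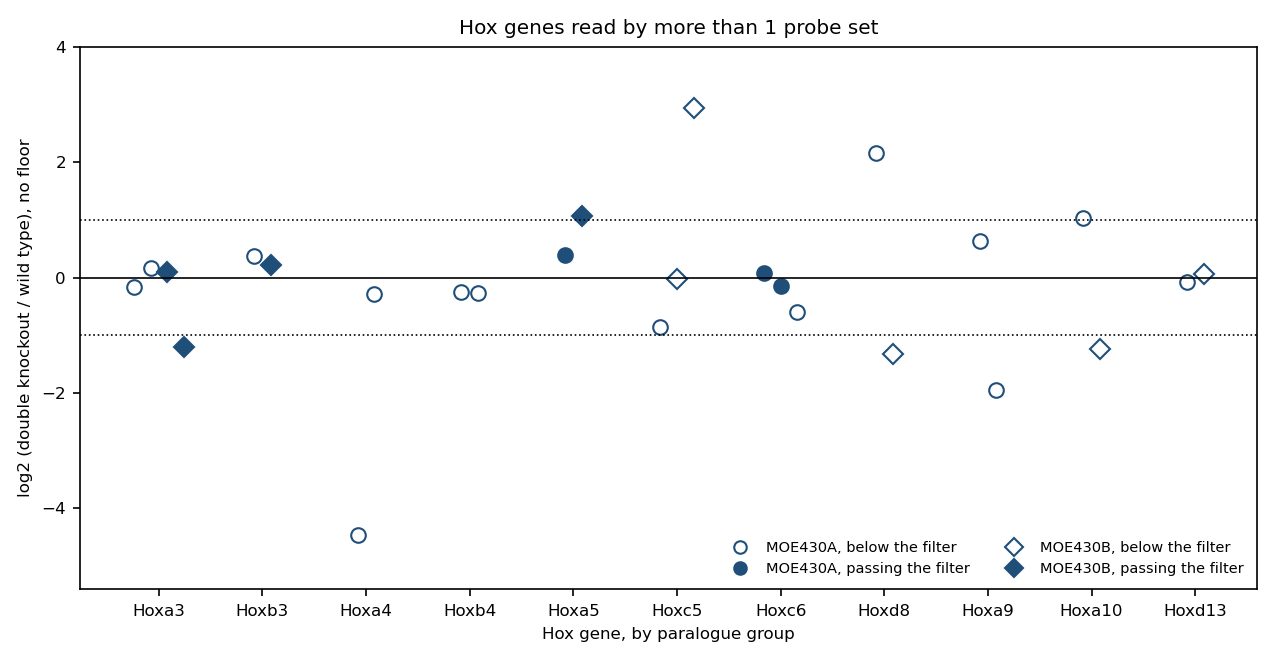
Log2 ratio without a floor for the 11 Hox genes read by more than 1 probe set, 1 point per probe set, circles for MOE430A and diamonds for MOE430B, filled where the probe set passed the filter; dotted lines mark 2-fold. The passing probe sets of Hoxa5 lie on 1 side of zero, those of Hoxa3 and Hoxc6 on both sides, and dim probe sets of Hoxa9, Hoxa10 and Hoxd8 lie far apart.

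Cofactors of Hox proteins, which bind DNA beside them, passed the filter on 9 of 13 probe sets on MOE430A and 6 of 8 on MOE430B. Of the 10 TALE homeodomain genes listed, 9 had a probe set. None of the passing probe sets was 2-fold apart, 0 of 9 and 0 of 6, against 0.848% higher and 1.04% lower of all passing ones on MOE430A and 4.79% and 3.45% on MOE430B, with medians of -0.10 on MOE430A and -0.06 on MOE430B. Pknox1 had log2 ratios of 0.77 and -0.10 on MOE430A and 0.15 on MOE430B, and Meis1 had 0.49 on MOE430A and -0.05 and -0.51 on MOE430B. The other low member was Pbx2, with -0.31, -0.31 and -0.30 by its 3 probe sets. These differences did not share a direction between the probe sets of Pknox1 or Meis1. Just below the filter on MOE430B, 1 probe set of Meis2 read 1288 and 522, which was noted after its values were seen. Below the filter on that design, 10.1% of all probe sets were at least 2-fold lower. The other Meis2 probe sets had -0.11 (passing) on MOE430A and -0.07 (passing) and 0.14 on MOE430B. The suffixes of the lowest one and of that at -0.07 mark them as ones that may also bind other transcripts.

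Chromatin regulators of the clusters include Polycomb proteins, which keep Hox genes silent, and trithorax proteins, which keep them active. The list also holds chromatin proteins of neither kind, among them Ctcf, Rad21 and Psip1. Of 27 listed, 26 had a probe set, and 12 of 32 passing probe sets were higher on MOE430A, with a median of -0.12, and 3 of 7 on MOE430B, with -0.11. Ezh2, the methyltransferase of Polycomb complex PRC2, read 3069 and 1393, a log2 ratio of -1.14. Ring1, a subunit of PRC1, read 1265 and 667, a log2 ratio of -0.92. Ezh1, the other methyltransferase of PRC2, read 798 and 1475 (0.89) by 1 passing probe set and had a log2 ratio of 0.21 by the other, and its dim probe sets on MOE430B were at least 2.92-fold and 3.45-fold higher. Kdm6b, a demethylase that removes the Polycomb mark, had 1.28, 0.77 and -0.26 over its 3 probe sets on MOE430B. The suffix of the probe set at 1.28 marks it as one that may also bind other transcripts, and the brightest, at 10076 and 8408, was that at -0.26. Of the passing probe sets of the list on MOE430A, 1 of 32, that of Ezh2, was at least 2-fold lower and 0 of 32 higher. Of all passing ones there, 1.04% were lower and 0.848% higher. On MOE430B, 1 of 7, a probe set of Kdm6b, was at least 2-fold higher and 0 of 7 lower, against 4.79% and 3.45% of all. Below the filter, Cbx7 read 408 and 1667 on MOE430B and Men1 216 and 589 on MOE430A, both named after their values were seen. Of all probe sets below the filter, 11.3% on MOE430B and 2.36% on MOE430A were at least 2-fold higher. The passing probe set of Men1 on MOE430A read 1272 and 1285 (0.01), and its dim one on MOE430B read 927 and 661 (-0.49).

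Upstream regulators are the retinoic acid pathway, which switches on anterior Hox genes, and the Cdx factors, which act on posterior ones. On MOE430A 5 of 6 passing probe sets were higher, with a median log2 ratio of 0.27, and on MOE430B 2 of 2, with 0.45. Cyp26b1, which degrades retinoic acid, read 2380 and 4163, a log2 ratio of 0.81. Rarg, a retinoic acid receptor, had 0.40 and 0.36, while Rarb had 0.03 and Zbtb16 -0.14 and 0.10. All 4 probe sets of Cdx1, Cdx2 and Cdx4 were under the floor in both arrays.

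Genes that flank the clusters were set beside them for their position. Of 28 passing probe sets on MOE430A, 10 were higher, with a median of -0.08, and of 11 on MOE430B, 5, with -0.03. Skap1, an adaptor of T cells next to the Hoxb cluster, read 6055 and 1023, a log2 ratio of -2.56, and Lnpk, next to the Hoxd cluster, read 1409 and 565, a log2 ratio of -1.32. A dimmer Skap1 probe set read 1293 and 320.4, and a dimmer one of Lnpk 615 and 761, in the other direction. Cbx1 had 0.57, -0.07 and -0.10 by its passing probe sets, and Hnrnpa1 had 0.45 and 0.11. The part of the lymphocyte markers above in the Skap1 value was not tested. Of the noncoding RNAs of the clusters, 3 of 11 were read: Hoxb5os at 1888 and 1985 (0.07), Hoxd3os1 at 1782 and 1602 (-0.15), and 99.5 and 108 by its other probe set, and Hoxa11os under the floor throughout.

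**Figure D4:**
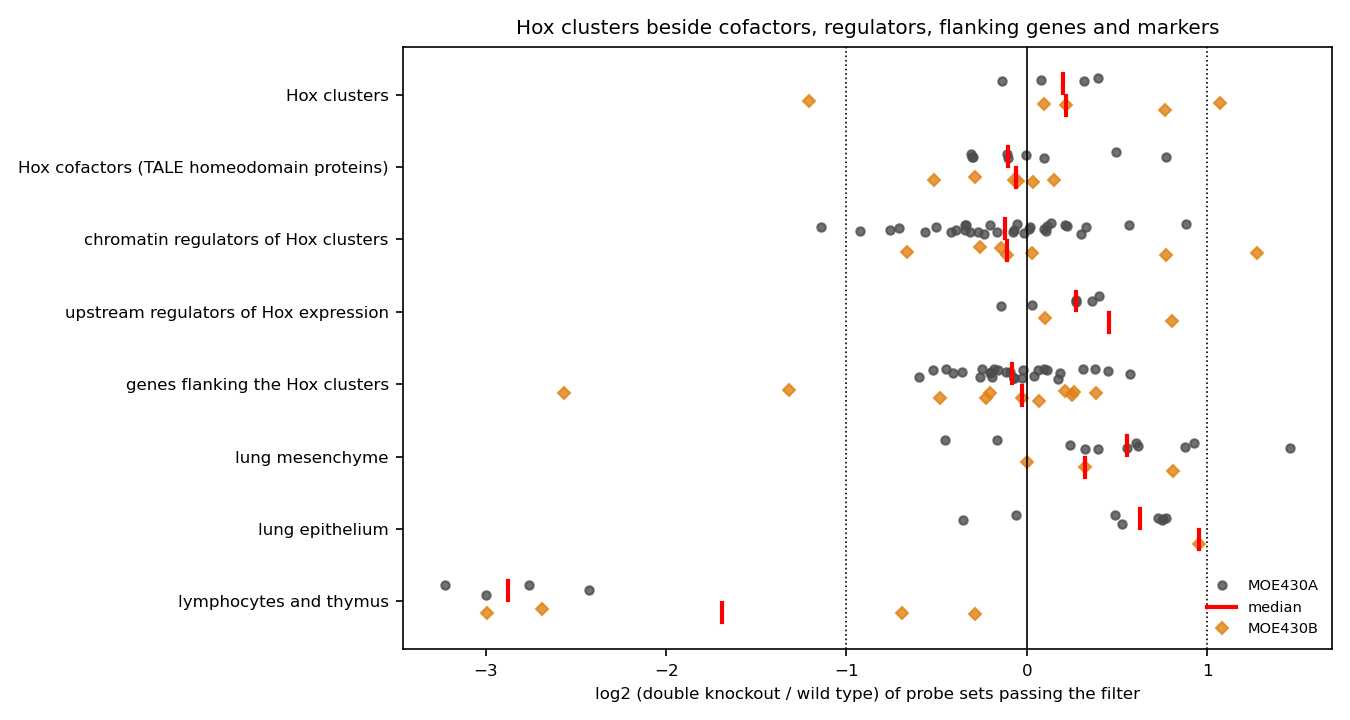
Log2 ratios of the arrays labelled double knockout over wild type for passing probe sets of the Hox clusters, their cofactors, chromatin and upstream regulators, flanking genes and 3 marker lists, with circles for MOE430A, diamonds for MOE430B and a red bar at each median; dotted lines mark 2-fold. The Hox medians (0.20 and 0.22) lie between those of the cofactors (-0.10 and -0.06) and of lung mesenchyme (0.56 and 0.32), and the lymphocyte and thymus markers lie lowest.

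Other cell types were read as follows. On MOE430A, cartilage and bone markers were lower on 3 of 3 passing probe sets, with summed signals of 6203 and 3870.2, and liver markers higher on 2 of 2, with 6312 and 11164, while the passing liver probe set on MOE430B was lower, with a log2 ratio of -0.71. On MOE430A, skeletal muscle markers were higher on 1 of 2 passing probe sets, Ckm at 0.27 against Acta1 at -0.73. Below the filter, each skeletal muscle probe set with a fold was lower, which was noted after the values were seen. Mylpf read 917 and 220, Tnni2 451 and 37.9, Myh3 292 and 32.4, Myh8 372 and 298, and Tnnt3 355 and 305. Another 2 were under the floor in both arrays. Cardiac markers were higher on 5 of 8 passing probe sets on MOE430A, with summed signals of 234232 and 256491. The part of heart muscle in the Ckm and Acta1 values was not tested. The single passing probe sets of the skeletal muscle and cardiac lists on MOE430B had log2 ratios of 0.15 and 1.05. Neuronal, mesothelial, red cell and leukocyte, and endothelial markers were higher on 1 of 2, 2 of 4, 3 of 5 and 2 of 5 on MOE430A, and the passing neuronal probe set on MOE430B had a log2 ratio of -0.07.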

How the data were processed

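Per the submitters' processing notes the authors used MAS5, its version and settings not given in the sources used here. They deposited 1 linear intensity per probe set, and the 2% trimmed mean of each array lay near 1500. MAS5 signals are noisy when dim, which widens ratios there. Labels give total RNA of 6 µg per array and embryonic day 18.5. The 64 control probe sets of each design were not used. The double knockout array was divided by the median ratio of passing probe sets, 1.005 on MOE430A and 1.0003 on MOE430B. A difference was counted at 2-fold. The precision is limited by the number of arrays.

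Genes were named through the platform annotation in GEO, and all 33 Hox identifiers matched RefSeq (GRCm38.p6), which also gave the promoters. Members, lists and the naming rule were chosen with earlier results of these data known. Both signals are given for passing Hox probe sets 1.5-fold apart, the 2 brightest per cluster, paralogue group 5 and genes whose probe sets differ in direction. They are also given for the 2 nearest the filter on each side. For cofactors, chromatin and upstream regulators and flanking genes, the 2 highest and 2 lowest passing members are named. The marker lists did not follow this rule. Other Hox signals are given to account for every member, and Sftpc, Tcf21 and Prss16 were picked after their values were seen. Alternatives covered scaling, floor, filter, cross-hybridising probe sets and 1 value per gene. The steps were tested on simulated arrays. Work used python 3.11.15, numpy 2.4.6 and pandas 2.3.3.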

Additional observations from a re-analysis of the deposited data

How the results depend on the processing

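The 2-fold different probe sets of Hoxa5, Hoxa3, Hoxb5 and Hoxc5 kept their direction under each alternative that gave them a value; Hoxd8 and Hoxc9 were not recomputed. On MOE430A the count of passing Hox probe sets at least 2-fold higher was 1 with the filter on the higher signal and 3 without a filter, and the count lower was 0 throughout. On MOE430B the count higher was 2 under both of these, and 0 once cross-hybridising probe sets were dropped, which leaves out that of Hoxa5. The count lower there was 0 with a filter at the 75th percentile, 0 with 1 value per gene and 0 with MOE430B placed on the scale of MOE430A. The MOE430B median was 0.48 with the filter on the higher signal, 0.69 at the 75th percentile, 0.49 with 1 value per gene and 1.07 on the common scale. Each of these settings changes which probe sets are counted.

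The common scale was chosen after seeing the data, because the 100 shared probe sets read a median 3.98-fold higher on MOE430B. On it only the Hoxa5 probe set passed, at 1293 and 2721, while Hoxa3 had -0.92 and Hoxd3 0.16, both below the filter. Of 133 ratios of named probe sets under the alternatives, 125 moved by less than the SD of 1 ratio. Much of this was fixed beforehand, so the count is no measure of how steady the ratios are. The filter settings changed a ratio only through the scaling factor, and a changed floor only where a signal lay under it. Dropping cross-hybridising probe sets changed no ratio. Dim probe sets were limited by the floor: with the floor at the median, Hoxb5 had 0.14 and the higher Hoxc5 probe set 0.60. Signs turned in 3 cases, Hoxd13 to -0.02 (quantile) and -0.03 (loess) and Hoxa3 1429398_at to -0.01 (loess). No paired analysis was possible because each genotype had 1 array per design.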
